A study of Rattus norvegicus with 6 samples.

Results

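Ngfr (ENSRNOG00000005392) encodes the p75 neurotrophin receptor and is 1 of the 29039 genes in the count table. It was chosen because its level in the ventromedial hypothalamus (VMH) had already been seen to differ between rats given predator odor (PO) and rats given control odor. The level in each library and the difference between the groups are therefore given as a description, with no test. RNA was sequenced from 6 male Sprague Dawley rats aged about 10 months, with 1 library per rat. The control odor group (C2, C3 and C4) received a clean piece of towel in the home cage, and the PO group (P8, P13 and P14) received a piece on which ferrets had bedded. Exposure lasted 20 minutes, and both groups had been accustomed to handling and to the control odor beforehand. The rats were anesthetized with isoflurane, and the VMH of both sides was punched from the frozen brain. Each library therefore held RNA from all of the cells in the punch. The gene counts summed to between 15835375 and 18370871 per control library and between 17479862 and 20316213 per PO library. None of the 7 VMH neuron markers listed for a check of the tissue label has a name in the sources used here, so the label was not checked against them.

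The p75 receptor binds all of the mature neurotrophins and, together with sortilin, their uncleaved precursors. It belongs to the tumor necrosis factor receptor family and carries a death domain inside the cell. With Trk receptors it sharpens the response to mature neurotrophins, which favors survival and growth. Without them it can signal toward cell death or toward the collapse of growing processes. In the adult rodent brain it is best known from the cholinergic neurons of the basal forebrain, and it is also made by Schwann cells, by some perivascular and meningeal cells and by injured neurons and glia.

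Ngfr was detected in all 6 libraries, and its level was lower in every PO library than in any control library. It was counted 358 times in C2, 268 times in C3 and 424 times in C4. After PO it was counted 194 times in P8, 127 times in P13 and 163 times in P14. Scaled to library size, as CPM (counts set to one common library total), these counts came to 20.3 CPM in C2, 16.4 CPM in C3 and 22.9 CPM in C4, against 9.71 CPM in P8, 7.01 CPM in P13 and 9.75 CPM in P14. The scaling used TMM factors, which remove shifts in the makeup of a library. The lowest control library stood 1.68-fold above the highest PO library, and the highest control library 3.26-fold above the lowest PO library. The gap of 6.67 CPM between the groups was wider than the range within the control group, 6.43 CPM, and within the PO group, 2.75 CPM. Of all 16685 genes tested, 2208 (13.2%) likewise had every PO library below every control library, and since Ngfr was chosen on this contrast nothing is read from its place among them.

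**Figure D1:**
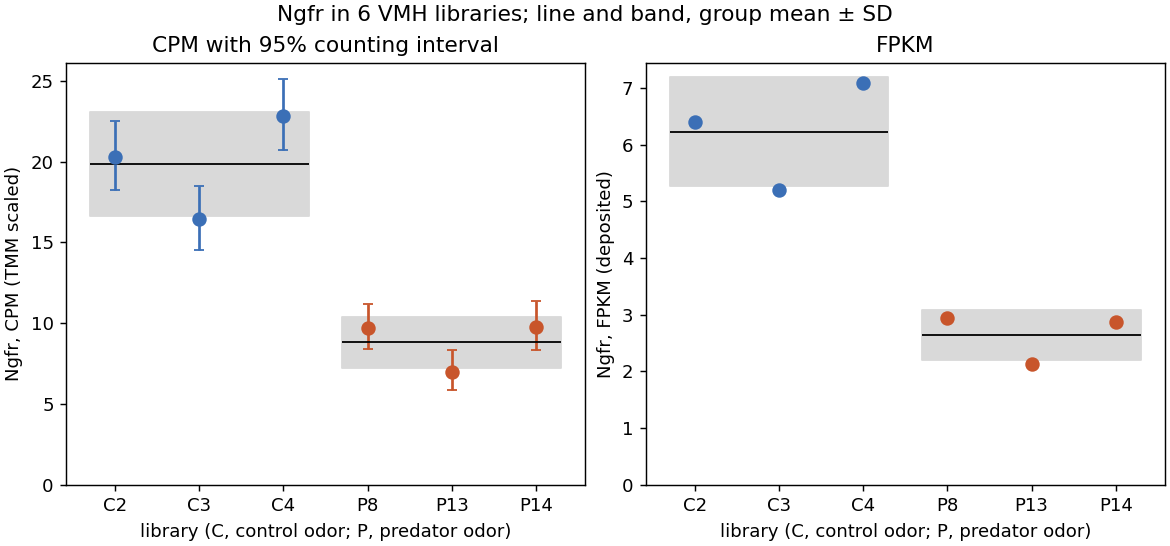
Level of Ngfr in each library, in TMM-scaled CPM with 95% counting intervals (left) and in FPKM as deposited (right), on axes that start at 0, with a line and band for each group's mean and SD. The control odor libraries lie between 16.4 and 22.9 CPM and the PO libraries between 7.01 and 9.75 CPM.

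The group means were 19.9 ± 3.24 CPM for control odor and 8.82 ± 1.57 CPM for PO (SD, n = 3 each). The control mean was thus 2.25-fold the PO mean, and the PO mean was 44.4% of the control mean. The fit over all genes placed the difference, PO minus control odor, at -1.17 on the log2 scale, with a standard error of 0.16. In that fit 59 of the 16685 genes (0.354%) passed an adjusted p of 0.05 by edgeR's quasi-likelihood test, 35 of them (0.21%) lower after PO. The count of 59 dropped to 9 when C2, C4 or P14 was left out and to 15 with C3 left out, and it stood at 135 when P8 and at 266 when P13 was omitted. For Ngfr itself the difference was between -1.29 without C3 and -1.02 without P13, and under 7 other ways of scaling, filtering or fitting it was between -1.24 and -1.16. The libraries are bulk tissue, so fewer cells that make Ngfr and less Ngfr RNA per cell cannot be told apart.

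**Figure D2:**
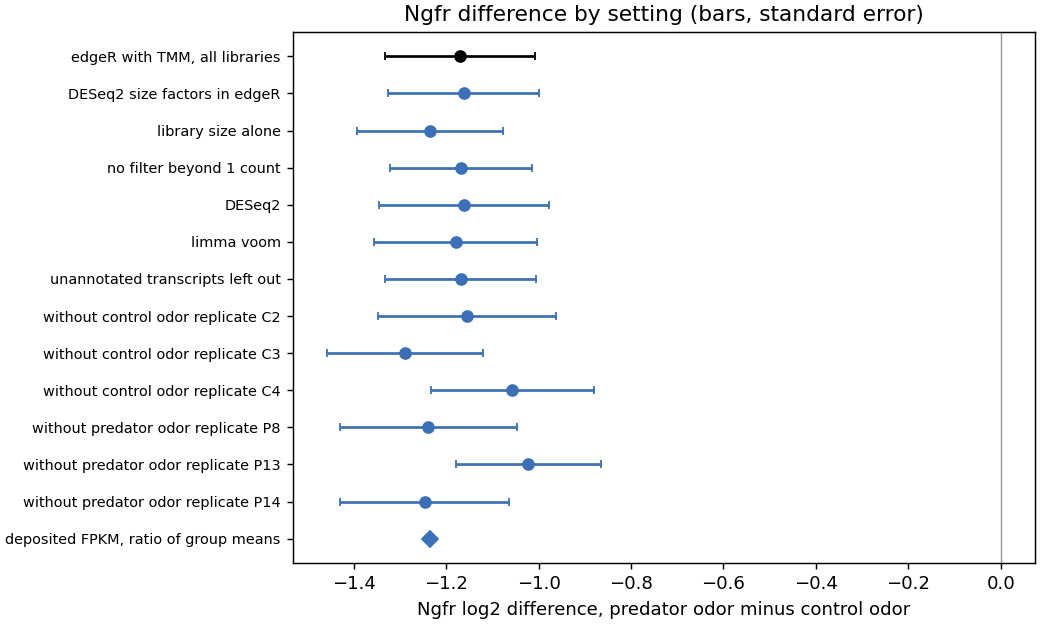
Difference in Ngfr level between PO and control odor on the log2 scale for the main estimate and each alternative, with 0 marked as no difference and bars for 1 standard error where the fit gives one. All 13 alternatives lie between -1.29 and -1.02.

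Counting error alone can be set beside the differences between the libraries of 1 group. In CPM, the exact 95% Poisson interval ran from 18.2 to 22.5 for C2, from 14.5 to 18.5 for C3 and from 20.7 to 25.1 for C4. The intervals of C4 and C3 did not meet, whereas C2 overlapped with both. After PO the interval ran from 8.39 to 11.2 for P8, from 5.84 to 8.34 for P13 and from 8.31 to 11.4 for P14. P13 did not meet P8 and overlapped with P14 only at its upper end. These intervals cover counting error and not the spread between animals. The order of the levels was thus C4, C2 and C3, then P14, P8 and P13, in which the neighbors C4 and C2, C2 and C3, and P14 and P8 are not separated by their counting intervals.

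The spread of Ngfr between the libraries of a group was wide for its level. Its coefficient of variation was 16.3% over the control libraries, where counting error alone gives 5.35%. The median over 2815 genes within 1.5-fold of its control level was 8.06%, and 89.7% of those genes varied less than Ngfr. Over the PO libraries the coefficient of variation was 17.8%, against 7.87% from counting error. The median over 2415 genes of like level was 12.6% there, and 72.0% of them varied less.

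The FPKM values, which divide by gene length and allow a comparison between genes, show the same order of the groups. They stood at 6.39 in C2, 5.20 in C3 and 7.09 in C4, and at 2.93 in P8, 2.13 in P13 and 2.87 in P14. P8 lay slightly above P14 here, the reverse of their order in TMM-scaled CPM. The means were 6.23 ± 0.956 FPKM for control odor and 2.65 ± 0.443 FPKM for PO (SD, n = 3 each), a 2.35-fold ratio. Ngfr was a gene of middle rank in the control VMH, where 48.4% of the 16685 tested genes had a lower FPKM in C2, 43.7% in C3 and 51.2% in C4. It stood lower in the ranking after PO, with 34.7% of genes below it in P8, 28.4% in P13 and 35.2% in P14.

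The genes of the authors' own table of called genes that have a name here, from that table or another source, give a frame for the size of this difference. Besides Ngfr, 147 named genes of that table were tested, of which 90 had a lower mean after PO and 57 a higher one. All of them were called on these same libraries, so their directions are not independent evidence. In 29 of the 90 the log2 difference was further below 0 than in Ngfr, and the median of the 90 was -0.66. Ngfr was thus among the named genes with a large difference without being at the end of the list. On the per-length scale 50 of the 90 had a higher FPKM than Ngfr in the control libraries and 52 had a higher one after PO.

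**Figure D3:**
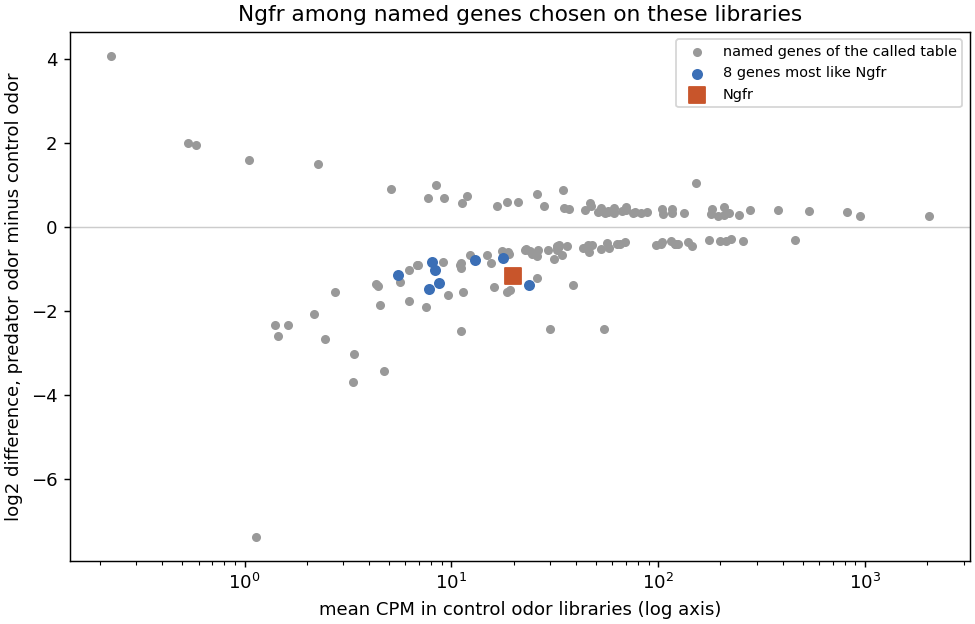
Difference between PO and control odor on the log2 scale against the control level in CPM on a log axis, for Ngfr and the 147 other named genes of the authors' table, with the 8 genes most like Ngfr marked. Ngfr lies at a control mean of 19.9 CPM and a difference of -1.17, below the median of -0.66 of the genes that were lower.

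The order of the libraries within a group differed from gene to gene. Ngfr was highest in C4 and lowest in C3 among the controls, and lowest in P13 after PO. Of the 90 other named genes with a lower mean, 38 were highest in C4 among the control libraries, 30 in C2 and 22 in C3. After PO, 50 of the 90 were lowest in P14, 26 in P13 as Ngfr was, and 14 in P8. The full control order of Ngfr was shared by 20 of the 90, and 6 of these were also lowest in P13. No share over all genes tested is given for such an order, so nothing is read from the 20 or the 6. The 6 were Scn9a, a sodium channel of sensory and some central neurons, Igfbp2, a carrier of insulin-like growth factors, Fndc9, Cdh1, the epithelial cadherin, Nfatc4, a transcription factor switched on by calcineurin, and Gria2, an AMPA-type glutamate receptor subunit. In some of the 6 the shared order rests on small differences or low levels. Fndc9 stood at 10.2 CPM in P13, against 10.8 CPM in P8 and 10.7 CPM in P14. Cdh1 was near the floor after PO, at 0 CPM in P13 and 0.36 CPM in P14. The sizes of difference of the 6 genes were far apart. The control mean was 1.25-fold the PO mean for Gria2, 1.35-fold for Scn9a and 5.43-fold for Igfbp2, against 2.25-fold for Ngfr.

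Likeness to Ngfr was measured over the 6 libraries as the root mean square difference of log2 CPM after each gene's own mean was taken off, so that a gene with the same differences between libraries would score 0. A gene with no difference at all between libraries would score 0.618, and the median of the 147 named genes was 0.507. The 8 nearest of these were Synpo2 (0.198), Col3a1 (0.205), Colec12 (0.214), Nfatc4 (0.217), Fgl2 (0.238), Fndc9 (0.252), Col5a1 (0.253) and Tubb6 (0.267). Synpo2 encodes an actin-binding protein, Col3a1 and Col5a1 encode chains of fibrillar collagens, Colec12 a scavenger receptor, Fgl2 a fibrinogen-like protein and Tubb6 a beta-tubulin. All 8 had every PO library below every control library, as 13.2% of all genes tested did. Of the 8, 7 were highest in C4 among the controls, and 6 were lowest in P13 after PO. The 8 were picked for likeness to Ngfr over these same libraries, so nothing is read from the counts. The measure largely follows the group difference by which both Ngfr and the table were chosen, so it describes the pattern and says nothing of a shared function.

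Synpo2 was the nearest named gene, at rank 9 among all 16685 genes tested. It stood at 4.81 CPM in C2, 5.70 CPM in C3 and 6.09 CPM in C4, and at 3.20 CPM in P8, 1.82 CPM in P13 and 2.45 CPM in P14. Like Ngfr it was highest in C4 and lowest in P13, but C3 lay above C2. Its log2 difference was -1.15, close to the -1.17 of Ngfr, at 0.22 times the control FPKM of Ngfr.

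Col3a1 had a level near that of Ngfr per length, with control means of 5.11 FPKM for Col3a1 and 6.23 FPKM for Ngfr. It was counted at 27.1 CPM in C2, 20.2 CPM in C3 and 24.3 CPM in C4, and at 11.6 CPM in P8, 7.23 CPM in P13 and 8.38 CPM in P14. Both genes had their lowest control level in C3 and their lowest PO level in P13, and Col3a1 differed more between the groups, at -1.39 on the log2 scale. Colec12, at -1.33, had nearly level PO libraries, from 3.29 to 3.70 CPM, so that P13 did not stand low there. Tubb6 was the other way round. Its PO libraries ranged from 4.97 CPM in P13 to 10.1 CPM in P14, beside control libraries between 12.2 and 13.7 CPM.

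Nfatc4 had the control order of Ngfr and was also lowest in P13, but its difference was smaller. It stood at 7.93 CPM in C2, 7.60 CPM in C3 and 8.68 CPM in C4, and at 5.15 CPM in P8, 4.03 CPM in P13 and 4.37 CPM in P14, which gave a log2 difference of -0.84. Fndc9, at -0.75, was also nearest to Ngfr once each group's mean had been taken off, with a score of 0.130, where a gene flat within its groups would score 0.208. Nfatc4 (0.137), Scn9a (0.138), Gria2 (0.140) and LOC103693210 (0.141) came next. LOC103693210 had a higher mean after PO, so its likeness to Ngfr lay within the groups only. At rank 418 of all tested genes for Fndc9, this second likeness was not close.

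**Figure D4:**
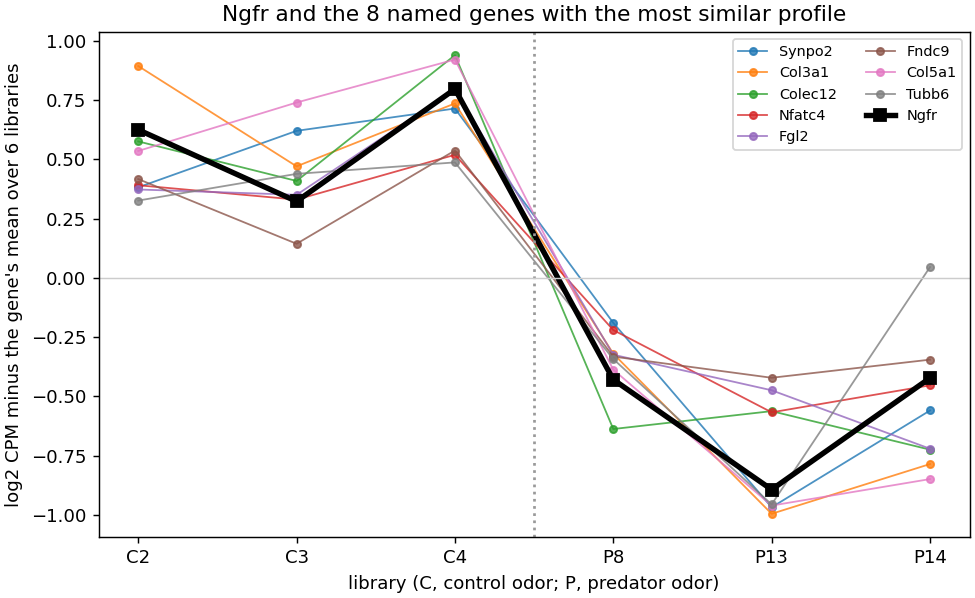
Log2 CPM of Ngfr and of the 8 named genes most like it, each with its own mean over the 6 libraries taken off, by library. Ngfr runs from 0.80 in C4 to -0.89 in P13. The control libraries of all 9 genes lie above their PO libraries, as in 13.2% of all genes tested. All 9 were chosen on this contrast.

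Named markers of another cell layer were also lower after PO. The membranes over the brain surface hold leptomeningeal fibroblasts, and 9 of the 18 genes listed as their markers have a name here. They are Col1a1, Col1a2, Igfbp2, Slc6a13, Slc13a4, Slc22a6, Slc22a2, Osr1 and Gjb2, and all 9 have a name only because the study singled them out on these libraries. Of the 9, 7 are in the authors' table of called genes, and Slc6a13 and Slc22a6 are in the study's table of leading genes. All 9 had every PO library below every control library, against 13.2% of all genes tested, but since they were singled out on this contrast nothing is read from that count. In 8 of the 9 the log2 difference was further below 0 than in Ngfr. Slc13a4, a sulfate transporter, had a control mean 5.47-fold its PO mean, and Gjb2, a gap junction protein, was the exception at 1.89-fold. Slc22a2, an organic cation transporter, was at 0 counts in P13 and P14.

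Summed over the 9 genes, the marker level was 180 CPM in C2, 149 CPM in C3 and 227 CPM in C4. After PO it was 74.9 CPM in P8, 42.8 CPM in P13 and 34.6 CPM in P14. The group means were 185 ± 39.3 CPM and 50.8 ± 21.3 CPM (SD, n = 3 each), a 3.65-fold ratio against 2.25-fold for Ngfr. The control libraries fell in the same order for the sum as for Ngfr, C4, C2 and C3. After PO the sum was lowest in P14 and Ngfr was lowest in P13. The single markers did not all share the control order of the sum. Among the controls 7 of the 9 were highest in C4, but Col1a1 and Col1a2 were highest in C2. Slc6a13, Slc22a2 and Osr1 had C3 above C2. Igfbp2, Col1a1 and Slc13a4 weigh most in the sum, with control means of 54.6, 38.8 and 29.8 CPM. For each 100 CPM of the summed markers lay between 10.1 CPM of Ngfr in C4 and 11.3 CPM in C2. The ratio was thus nearly level among the controls. After PO it was above every control value, at 12.97 in P8, close to the controls, 16.4 in P13 and 28.2 in P14. Of the 9 markers, which were singled out on this contrast, 8 differed more than Ngfr. A higher ratio after PO follows from that, and nothing is read from it. The part of these markers in the Ngfr result was not tested.

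**Figure D5:**
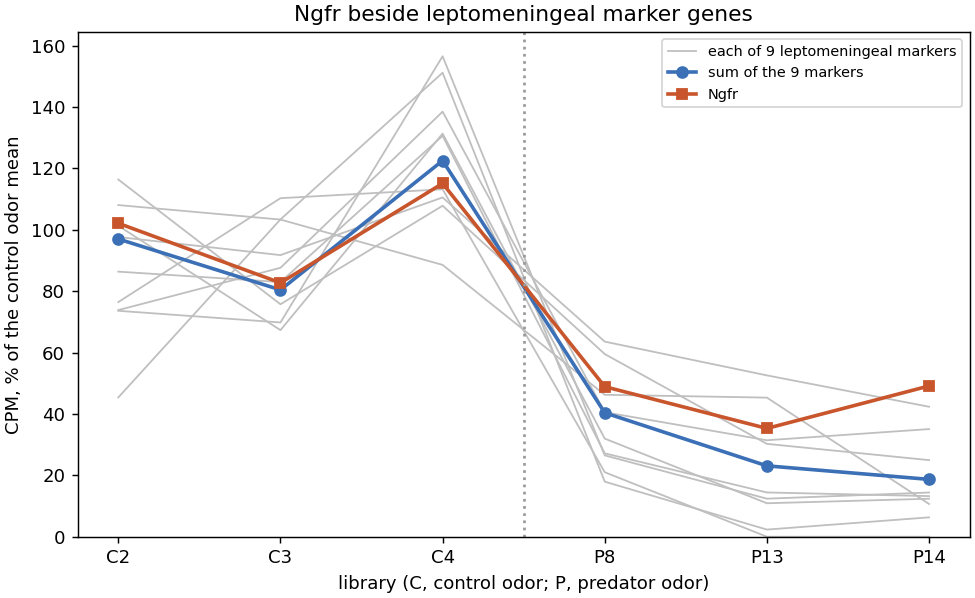
Ngfr, 9 leptomeningeal marker genes and the sum of the 9 in each library, as percent of the control odor mean of the same quantity in CPM. After PO the marker sum lies at 18.7% to 40.4% and Ngfr at 35.3% to 49.1% of the control mean.

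Markers of other cells could be followed in few cases. Olig2, which directs the oligodendrocyte lineage, stood at 46.9 ± 3.75 CPM after control odor and at 70.0 ± 1.46 CPM after PO (SD, n = 3 each), the opposite direction to Ngfr. Tbx3, a transcription factor of arcuate neurons, was at 8.33, 10.7 and 9.97 CPM in C2, C3 and C4. It was at 6.30 CPM in P8, 1.60 CPM in P13 and 1.38 CPM in P14, so that P8 lay closer to the controls than P13 and P14 did. In Ngfr P8 and P14 were alike, and P8 did not stand apart. The part of either gene's cells in the Ngfr result was not tested. The cholinergic neurons and Schwann cells best known for Ngfr have none of their listed markers named here.

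The study's annotation sets Ngfr beside a few genes of oxidative stress, hypoxia and neural function. Palld, also listed there, is paired with no gene ID in the sources used here and was not analysed. Axl, a receptor by which phagocytes take up dying cells, was at 18.5 CPM in C2, 19.1 CPM in C3 and 17.6 CPM in C4, and at 11.1 CPM in P8, 13.7 CPM in P13 and 11.1 CPM in P14. Prkce, a protein kinase C isoform, stood at 18.2, 16.3 and 12.2 CPM in C2, C3 and C4 and at 9.36, 9.49 and 7.06 CPM in P8, P13 and P14. Both were lower after PO as Ngfr was, but their order of libraries was another. Axl was lowest among the controls in C4, where Ngfr was highest, and highest among the PO libraries in P13, where Ngfr was lowest.

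Tspo and Egr1 stood the other way. Tspo, a mitochondrial protein that is abundant in reactive glia, was at 8.61 CPM in C2, 6.68 CPM in C3 and 7.92 CPM in C4, and at 11.1 CPM in P8, 14.1 CPM in P13 and 12.1 CPM in P14. P13 had the highest Tspo and the lowest Ngfr, whereas among the controls C3 was lowest in both genes. Per length, Tspo was at 1.51 times the FPKM of Ngfr in the control group and at 5.47 times after PO. Egr1, an immediate early transcription factor, was at 31.4 CPM in C2, 47.8 CPM in C3 and 25.3 CPM in C4, and at 69.4 CPM in P8, 57.8 CPM in P13 and 65.0 CPM in P14. Among the controls C3 had the most Egr1 and the least Ngfr, and C4 the least Egr1 and the most Ngfr. Among the PO libraries, by contrast, P13 was lowest in both genes. Egr1 is also the 1 gene with a name here among the 97 listed for the neurotrophin and p75 pathways, where it stands as a regulator of Ngfr transcription in other systems. The ligands, the Trk receptors, sortilin and the other partners of p75 were therefore not analysed here.

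Of the 28 pathways in the authors' KEGG table, Ngfr was placed in 1, the PI3K-Akt signaling pathway, through which growth factor receptors and integrins promote survival. Its 8 called members were drawn from 336 background genes, and the 7 besides Ngfr were Gnb1, Col6a1, Col1a2, Fn1, Col6a3, Col1a1 and Thbs2. All 7 had every PO library below every control library, as 13.2% of all genes tested did. They were called on this contrast, so nothing is read from that count. Of the 7, 6 encode proteins of the extracellular matrix, which bind integrins, and Gnb1 encodes a G protein subunit. Ngfr was thus the only membrane receptor for a growth factor among the 8 called members. The control mean was 1.25-fold the PO mean for Gnb1, 1.62-fold for Fn1 (fibronectin) and 2.99-fold for Col6a3, and Ngfr lay between them at 2.25-fold. Per length Gnb1 was far more abundant than Ngfr, at 135 FPKM in the control group, while Col1a1 was close to it at 6.81 FPKM. In the PO group the level was 2.50 FPKM for Col1a1 and 2.65 FPKM for Ngfr.

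Ngfr was listed under 112 of the 1132 gene ontology terms in the authors' table, 106 of biological processes and 6 of molecular functions. It was the only called member of death receptor activity, a term with 6 background genes. Under neuron death 6 other called genes were listed. Isl1 and Axl had a lower mean after PO as Ngfr did. Mt3, a metallothionein of the brain, Gapdh, a glycolytic enzyme, Egr1 and Btg2, an antiproliferative early gene, had a higher one. None of the 6 was further below 0 than Ngfr. Under angiogenesis 8 other called genes were listed, of which Nfatc4, Epas1, Thbs2, Isl1 and Mmp14 were lower in every PO library and Enpp2, S100a1 and Thy1 were higher. Such separation was found in 13.2% of all genes tested for lower and in 13% for higher levels, and these genes were called on the same contrast. Thbs2, a matrix glycoprotein, differed more than Ngfr, with a control mean 2.66-fold the PO mean. Epas1, a hypoxia-inducible transcription factor, differed less, at 1.29-fold.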

How the data were processed

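RNA from VMH micropunches of 6 rats was sequenced in paired ends. The authors filtered the reads, used HISAT2 (v2.1.0-beta) to align them to Rnor_5.0 with the genes of Ensembl version 79, and counted reads per gene with HTSeq (v0.6.1), and the counts were deposited raw. The submitters' processing notes also name CASAVA 1.8 and DESeq. The sources used here do not give the strand setting of the counting, so reads of an overlapping or antisense gene could not be told apart from those of Ngfr. The authors divided these counts by gene length for the deposited FPKM, and a length of 3254 bases reproduced those of Ngfr. Base quality and GC content were deposited as percent of bases in each library. From the tables in which the authors list called genes, GO terms and KEGG pathways, names and memberships were taken, but not the p-values or fold changes of their comparison.

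Counts were fitted with edgeR 4.0.16 in R 4.3.3 (TMM factors, filterByExpr, robust quasi-likelihood, Benjamini-Hochberg adjustment), and 16685 genes were tested. The common biological coefficient of variation was 0.142. The standard error given for edgeR was the absolute log2 difference divided by the square root of the quasi-likelihood F statistic. The alternatives were DESeq2 1.42.0, limma 3.58.1 (voom), other scalings, no filter, the omission of unannotated transcripts and of each library, and the deposited FPKM. Likeness used log2 CPM with a prior count of 2. Counting intervals were exact 95% Poisson intervals. Python 3.11.15 with NumPy 2.4.6, pandas 2.3.3, SciPy 1.17.1 and Matplotlib 3.10.9 served for the rest.

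Of the 29039 IDs, 170 have a name here. Names came from the authors' table of called genes (144), the study's table of leading genes (21) and Entrez IDs in the KEGG table (5). The named genes were Ngfr, the 8 genes of the called table and the 5 named genes overall nearest to it, the 5 nearest within groups, and listed pathway and marker genes. The genes of the PI3K-Akt pathway, of the GO terms, of the stress annotation and those sharing its control order and its lowest PO library were added after values had been seen. Ngfr and the lists were chosen with earlier results of these data known. Of 10 pathway lists, 9 have no named member, so the planned count of called pathway genes was void and was not run. Of 15 cell type lists, 12 have no named member. Nothing in the labels gives a batch.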

Additional observations from a re-analysis of the deposited data

How the results depend on the processing

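The Ngfr difference kept its direction under all 13 alternatives and moved by less than the pooled SD of 0.26 within groups, from -1.29 to -1.02 on the log2 scale. The mean FPKM lay between 5.79 and 6.74 in the control group and between 2.50 and 2.90 after PO when 1 library was left out, and TMM-scaled CPM over the same length gave 6.10 and 2.71. The groups of Ngfr did not overlap by library size CPM, by FPKM or with no filter, where 4556, 4555 and 4792 genes did not overlap against 4379. The 8 genes most like Ngfr were the same 8 with library size CPM and with a prior count of 0.5.

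The count of genes passing an adjusted p of 0.05 over the whole table, 59 by edgeR, was not stable. It was 103 with library size alone, 433 with no filter, 865 with DESeq2 and 3 with limma voom, and it lay between 9 and 266 when 1 library was left out. The cause was not tested. The planned count of pathway genes could not be run for want of names. No paired analysis was possible because the replicate numbers 2, 3 and 4 of the control group and 8, 13 and 14 of the PO group are not shared. With 3 rats a group and 127 to 424 counts of Ngfr per library, the spread between libraries of a group was wider than counting error alone gives. With 1 library per rat, differences between rats cannot be told apart from differences in punching or library preparation.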

Other observations

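The called genes that share a further annotation with Ngfr did not all stand in its direction. Under positive regulation of cell death (482 background genes), 2 of the 8 other called genes were lower in every PO library, Camk2a and Nfatc4. The other 6, Cck, Tspo, Mt3, Phlda3, Egr1 and Sirt2, were higher in every PO library, with PO means from 1.30 times the control mean for Mt3 to 1.87 times for Cck. Of all genes tested, 13.2% were lower and 13% were higher in every PO library, and these 8 had been called on this contrast, so nothing is read from the counts.

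Among all named genes, and not only those of the authors' table, Crabp2, a carrier of retinoic acid, was the fifth nearest to Ngfr (0.221). It stood at 9.40 CPM in C2, 6.86 CPM in C3 and 14.2 CPM in C4, and at 4.10 CPM in P8, 3.15 CPM in P13 and 3.65 CPM in P14. C3 was lowest among its controls and P13 lowest after PO, as in Ngfr, and its control libraries were wider apart. The nearest of all 16685 tested genes were ENSRNOG00000004622 (0.082) and ENSRNOG00000010349 (0.094), which have no name in the sources used here. ENSRNOG00000004622 stood at 2.32, 1.78 and 2.26 CPM in C2, C3 and C4 and at 1.05, 0.772 and 1.02 CPM in P8, P13 and P14, a low level at which counting error alone is larger than for Ngfr.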
